A study of Homo sapiens with 6 samples.

Results

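SNAI2, HMGA2 and SOX9 encode nuclear proteins that are known to respond to TGF-β and to be active in mesenchymal cells, and all 3 transcripts were lower in TGF-β1-treated LX-2 cells after albiflorin (ALB). They are 3 of the 937 genes in the deposited table and were chosen by name. The table lists only genes that the study had already called as changed between the same 6 libraries, so being in it is itself a result of that selection, and the tests here repeat it and are not independent evidence.

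The LX-2 line was derived from human hepatic stellate cells. In both groups the cells were given 20 ng/mL TGF-β1 for 24 h, and for a further 24 h they were kept with ALB, a monoterpene glycoside of peony root (ALB group), or with the same dose of medium (TGF-β1 group, titled control in the labels). There were 3 libraries per group. The ALB concentration of the sequenced cells is not given in the sources used here, LX-2 cells that had no TGF-β1 were not analysed here, and no source says of these libraries whether they came from separate cultures, although the study's statistics speak in general of independent experiments, so p-values reflect library-to-library spread alone, and that spread may be technical. The labels also name a hepatocyte cell type. The table reports genes that changed, so whether a marker is in it says nothing of its expression, and the identity of the cells could not be checked from it. Of the lists of markers, 0 of 8 hepatocyte, 4 of 12 stellate and mesenchymal (COL1A2, COL3A1, TAGLN and LOX) and 3 of 7 bile duct and other epithelial markers (KRT7, KRT8 and KRT18) had values.

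Stellate cells store vitamin A in the healthy liver and, when activated by TGF-β, turn into contractile, matrix-producing myofibroblasts. SNAI2 (Slug) is a zinc finger repressor that binds E-box sequences and silences epithelial genes such as the one for E-cadherin. HMGA2 is a small chromatin protein that binds AT-rich DNA through AT-hooks. It is abundant in the embryo, is raised by TGF-β through SMAD proteins, and is a classic target of the let-7 microRNAs. SOX9 is an HMG-box transcription factor that directs cartilage formation, marks bile duct cells in the liver, and is known to promote matrix production in stellate cells.

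By the GENCODE 29 annotation (GRCh38), SNAI2 (ENSG00000019549) is on the minus strand of chromosome 8, between 48917604 and 48921740. No annotated gene overlaps it. HMGA2 (ENSG00000149948) spans 142165 bases of chromosome 12, from 65824131 to 65966295 on the plus strand, and SOX9 (ENSG00000125398) lies on chromosome 17 from 72121020 to 72126420, also on the plus strand. RPSAP52, AC090673.1 and AC090673.2 overlap HMGA2 on the other strand, and AC107308.1 overlaps it on the same strand. SOX9-AS1 overlaps SOX9 on the other strand. None of the overlapping genes was in the table under its name. Since no source used here says whether reads were counted by strand, reads of HMGA2 or SOX9 and of partners on the other strand may not be told apart. Counting by strand would not separate HMGA2 from AC107308.1. The nearest protein-coding neighbours on either side of each of the 3 genes were not in the table either. The closest gene of the table to SOX9 was SSTR2, 1038592 bases away.

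SNAI2 was the most abundant of the 3. Its level was 26.5, 28.6 and 26.8 FPKM (a level per transcript length and library depth, as deposited by the authors) in TGF-β1 replicates 1, 2 and 3, and 14.3, 15.5 and 12.3 FPKM in ALB replicates 1, 2 and 3. The groups did not overlap, and the lowest TGF-β1 library stood 1.71 times above the highest ALB library. The counts behind these values were 2195, 2198 and 1957 without ALB and 1110, 1203 and 1105 with it. At library depths estimated from count and FPKM, the level with ALB was 51.4% of that without it, a log2 fold change (ALB over TGF-β1, negative where ALB is lower) of -0.96 with a standard error (SE) of 0.17. In edgeR's quasi-likelihood test, adjusted over the table by Benjamini-Hochberg, this gave an adjusted p = 0.000589. The call did not hold under either scaling computed from the table's own genes, with a log2 fold change of -0.36 under TMM (adjusted p = 0.0524, edgeR) and of -0.26 under DESeq2's size factors (adjusted p = 0.155, DESeq2). Both scalings assume that most genes do not change, whereas all genes of the table were selected as changed. In RNA from whole wells, fewer cells that express a gene and less RNA per cell cannot be told apart.

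HMGA2 had the largest fold change of the 3, whereas the drop in mean level was larger for SNAI2 (13.3 FPKM) than for HMGA2 (8.52 FPKM), and the changes of HMGA2 and SOX9 were not told apart by their ratio within libraries (exact permutation test, p = 0.5). It was at 10.98, 14.4 and 10.4 FPKM in TGF-β1 replicates 1, 2 and 3 and at 2.90, 3.81 and 3.56 FPKM in ALB replicates 1, 2 and 3. TGF-β1 replicate 2 was the high library of its group, and even the lowest TGF-β1 library was 2.75 times the highest ALB library. Its counts were 1507, 1921 and 1295 without ALB and 412, 542 and 580 with it. The log2 fold change was -1.70 with SE 0.20 (edgeR, adjusted p = 0.000112), which leaves 30.8% of the level without ALB. Without TGF-β1 replicate 2 it was -1.52.

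SOX9 was the least abundant. It stood at 5.09, 5.43 and 5.31 FPKM in TGF-β1 replicates 1 to 3 and at 1.41, 2.43 and 1.86 FPKM in ALB replicates 1 to 3, from counts of 760, 757 and 702 and of 198, 340 and 302. The TGF-β1 libraries lay close together, the ALB libraries were spread, with replicate 1 lowest and replicate 2 highest, and the groups did not overlap. The log2 fold change was -1.48 with SE 0.22 (edgeR, adjusted p = 0.000297), a level of 36.0% of that without ALB. It was -1.30 without ALB replicate 1 and -1.69 without ALB replicate 2.

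**Figure D1:**
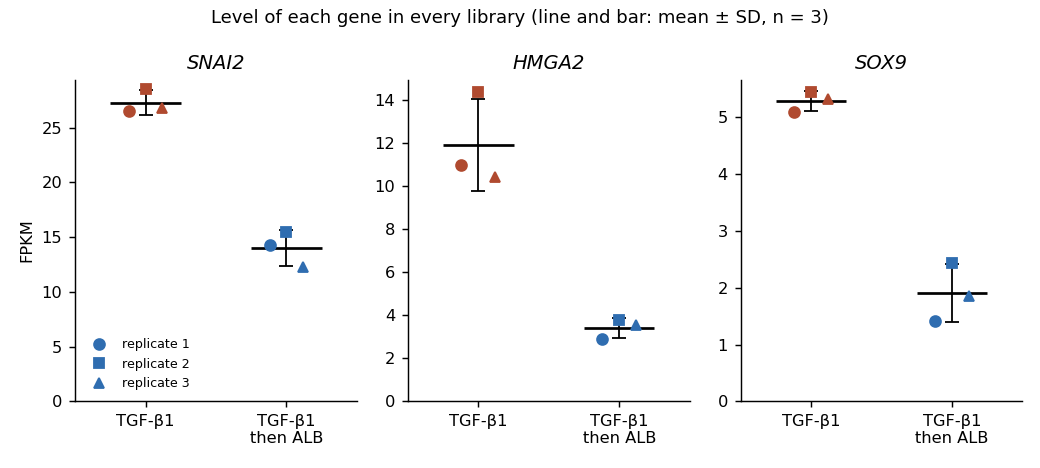
FPKM of SNAI2, HMGA2 and SOX9 in each of the 3 TGF-β1 and 3 ALB libraries, with the group mean and SD; each panel has its own axis from 0. In every panel the ALB libraries lie below all TGF-β1 libraries, from 12.3 to 15.5 against 26.5 to 28.6 FPKM for SNAI2, and TGF-β1 replicate 2 stands above the others for HMGA2.

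The mean levels were 27.3 ± 1.11 and 14.0 ± 1.64 FPKM for SNAI2, 11.9 ± 2.14 and 3.42 ± 0.471 FPKM for HMGA2, and 5.28 ± 0.174 and 1.90 ± 0.511 FPKM for SOX9 (TGF-β1 and ALB group, mean ± SD, n = 3 libraries). For each gene an exact permutation test (two-sided) on the FPKM returned p = 0.1, below which 3 against 3 libraries cannot go. In the edgeR fit all 3 genes passed at an adjusted p of 0.05 as lower, as did 56.9% of the table. Every ALB library was below every TGF-β1 library in all 3 genes, and this held for 54.9% of the table. These shares belong to a table of called genes, and nothing particular to SNAI2, HMGA2 and SOX9 is read from them.

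The order of the levels was SNAI2, HMGA2 and SOX9 in each of the 6 libraries. FPKM is a level per length, so it can be set side by side between genes. The SNAI2 level was 1.98 to 2.56 times that of HMGA2 without ALB and 3.44 to 4.92 times with it. HMGA2 in turn was 1.97 to 2.65 times as abundant as SOX9 without ALB and 1.57 to 2.05 times with it. Neighbours in this order therefore stayed apart within every library. In the TGF-β1 group SNAI2 ranked 84th, HMGA2 168th and SOX9 270th of the 937 genes by mean FPKM, and in the ALB group 111th, 311th and 404th.

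The spread between libraries differed among the 3 genes. In the TGF-β1 group the level scaled to depth had a coefficient of variation of 3.90% for SNAI2 and 3.27% for SOX9, whereas counting error alone would give 2.17% and 3.68%. For SOX9 the spread did not exceed counting error. For HMGA2 the coefficient was 19.8% with a counting share of 2.52%, and TGF-β1 replicate 2 was the highest library. In the ALB group it was 11.7% for SNAI2, 13.8% for HMGA2 and 26.9% for SOX9, with 2.96%, 4.42% and 5.98% from counting. Over the 565 genes of the table with at least 50 counts in every library, the median coefficient of variation of the FPKM was 12.6% without ALB and 19.5% with ALB. By the same measure, the coefficient of the FPKM, HMGA2 was above that median without ALB (17.9%) and SOX9 above it with ALB (26.9%).

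The ratio of 2 genes within one library does not depend on how the library is scaled, and it was used to ask whether the 3 genes fell by different amounts. The log2 ratio of the counts of SNAI2 to those of HMGA2 was 0.54, 0.19 and 0.60 without ALB and 1.43, 1.15 and 0.93 with it. It was higher in every ALB library, by 0.73 on average (exact permutation test, two-sided, p = 0.1, adjusted p = 0.15 over the 3 pairs). The log2 ratio of SNAI2 to SOX9 was 1.53, 1.54 and 1.48 without ALB and 2.48, 1.82 and 1.87 with it, an increase of 0.54 (exact permutation test, p = 0.1, adjusted p = 0.15) that was 0.33 without ALB replicate 1. SNAI2 therefore gained on both other transcripts in all libraries, with groups that did not overlap, at the smallest raw p the design can give and without reaching 0.05. The log2 ratio of HMGA2 to SOX9 changed by -0.18, less than its SD of 0.24 between the TGF-β1 libraries, and the groups overlapped (exact permutation test, p = 0.5).

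Whether SNAI2 passed depended on the scaling, and whether HMGA2 and SOX9 passed did not. Among the 537 genes with lower counts after ALB, HMGA2 was 171st by fold change and 84th by p, SOX9 239th and 159th, and SNAI2 483rd and 219th. Over the whole table the median log2 fold change was -0.97, so SNAI2 sat at the median, HMGA2 was 0.73 below it and SOX9 0.50 below it. Over the lower genes alone the median was -1.39, with HMGA2 and SOX9 below it and SNAI2 above it. SNAI2 was also near the inner edge of the lower genes. No gene of the table had a log2 fold change between -0.88 and 1.11, a gap of 1.99 that is centred on 0.11. A scaling that centres this gap on 0 put SNAI2 at -1.07, HMGA2 at -1.81 and SOX9 at -1.59. TMM factors computed from the table, which assume that most genes do not change although all were selected as changed, gave -0.36 for SNAI2 (adjusted p = 0.0524, edgeR), -1.10 for HMGA2 (adjusted p = 0.00105, edgeR) and -0.88 for SOX9 (adjusted p = 0.00331, edgeR). HMGA2 and SOX9 still passed as lower under TMM, as did 35.3% of the table, and under DESeq2's own size factors, as did 29.7%. SNAI2 passed under neither (log2 fold change -0.26, adjusted p = 0.155, DESeq2). The study kept only genes with over 2-fold change. SNAI2 was 1.94 times lower at the estimated depths, and with TMM or DESeq2's factors it was much further from 2-fold. With TMM factors no gene of the table lay between -0.25 and 1.5, a gap that is not centred near 0. The direction was the same for all 3 genes under each of these scalings.

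**Figure D2:**
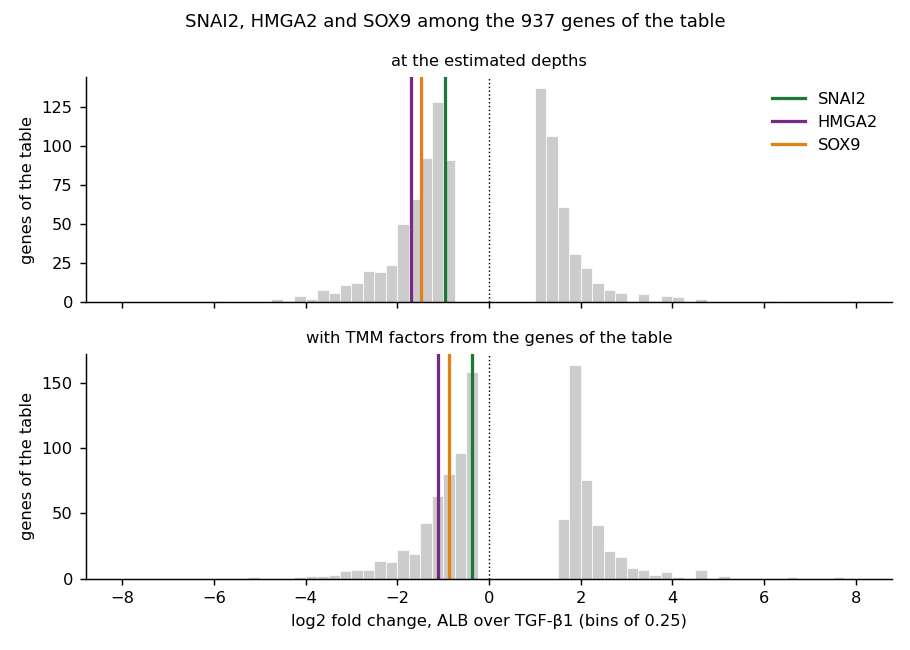
Number of the 937 genes of the table per bin of log2 fold change (ALB over TGF-β1), at the estimated depths (top) and with TMM factors from the table (bottom); coloured lines mark the 3 genes. The lines of SNAI2, HMGA2 and SOX9 stand at -0.96, -1.70 and -1.48 at the top and at -0.36, -1.10 and -0.88 at the bottom, and SNAI2 lies at the inner edge of the lower genes in both.

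**Figure D3:**
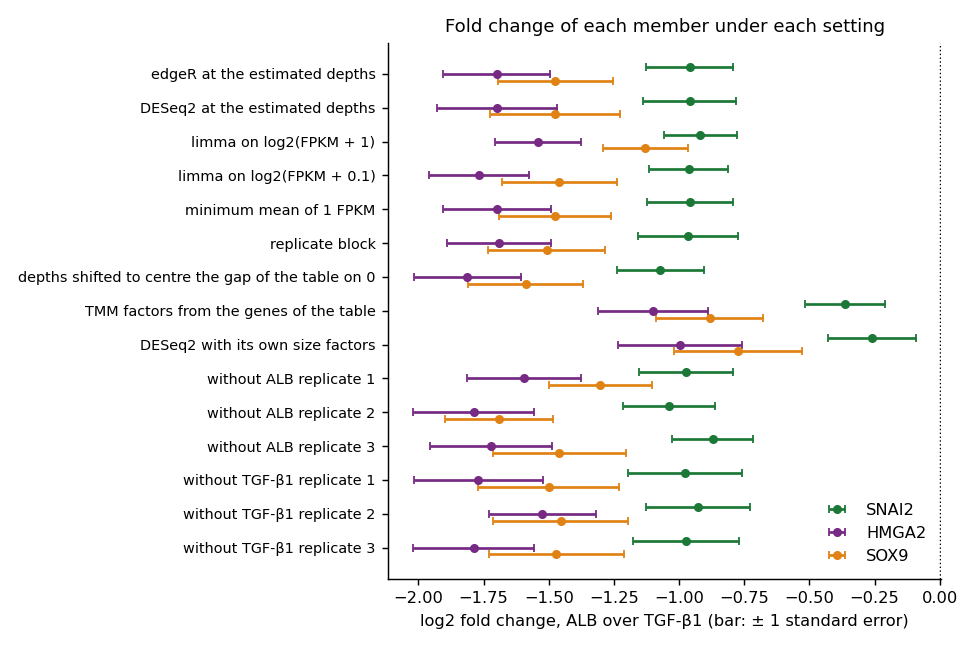
Log2 fold change of each gene with its standard error under each processing setting, including each library left out in turn. All values lie below 0, HMGA2 is the lowest in every setting, and SNAI2 lies between -1.07 and -0.87 except with TMM (-0.36) and DESeq2's own size factors (-0.26).

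HMGA2 was the one of the 3 whose fold change differed between count and FPKM. By mean FPKM it was 3.49 times lower with ALB, and by the counts 3.25 times. For SNAI2 the FPKM gave 1.95 and the counts 1.94 times, and for SOX9 both gave 2.78 times. Dividing the count by the FPKM and by the estimated depth gives the transcript length that the FPKM value implies. For SOX9 it was 3911 to 3913 bases in all 6 libraries, near the 3935 and 3922 bases of its annotated transcripts. For SNAI2 it was 2161 to 2171 bases, between 2 annotated coding transcripts of 2010 and 2428 bases. Neither differed between the groups beyond their spread.

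The implied length of HMGA2 was 3597, 3747 and 3669 bases in TGF-β1 replicates 1, 2 and 3 and 3966, 3980 and 3916 bases in ALB replicates 1, 2 and 3. It was longer in every ALB library, with means of 3671 ± 74.9 and 3954 ± 33.6 bases (SD, n = 3), a rise of 7.73% (log2 change 0.11, exact permutation test, two-sided, p = 0.1, the smallest possible). Such a shift was not rare in the table. Of the 565 genes with enough counts 11.7% were longer in every ALB library, 45 rose by more than HMGA2, and 82.5% changed by less in either direction. With SOX9 of the same library as the ruler in place of the estimated depth, the log2 change was the same 0.11. It had to be, since the implied length of SOX9 was level at the estimated depths. The deposited values do not say which transcripts make up the FPKM of a gene.

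**Figure D4:**
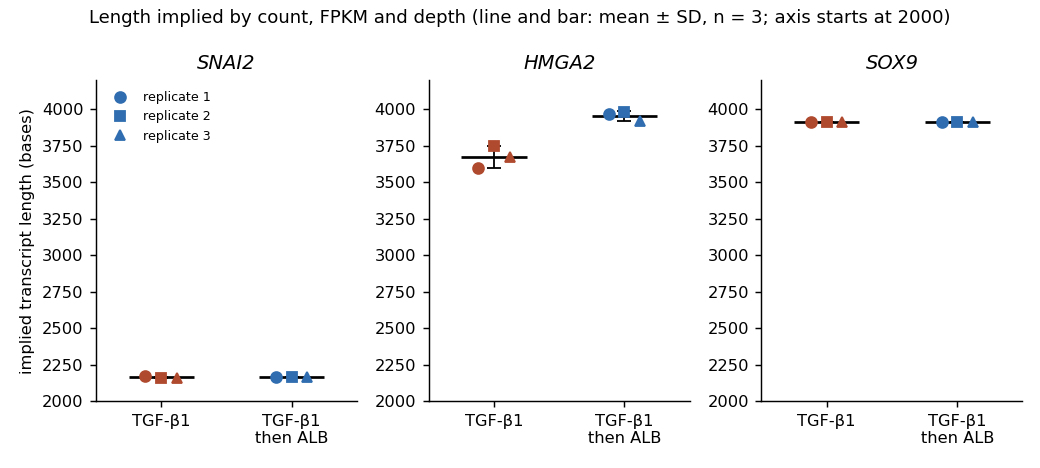
Transcript length implied by count, FPKM and estimated depth, in bases, for each gene in each library, with the group mean and SD; the axis does not start at 0. SNAI2 and SOX9 stay level across the 6 libraries, and the 3 ALB libraries of HMGA2, at 3916 to 3980 bases, lie above the TGF-β1 libraries, at 3597 to 3747.

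HMGA2 has 11 annotated transcripts, from 485 to 8094 bases, and they differ in the sites of its best known regulator. The mean implied length lies between that of the short coding forms, such as HMGA2-201 with 1529 bases, and that of HMGA2-204 with 4473 bases, of which 3003 follow the coding part. HMGA2-210 is longer, with 7421 bases after the coding part. The let-7 microRNAs pair with CUACCUC, the complement of their seed (bases 2 to 8). Within HMGA2-204, 4 such matches follow the stop codon, at 21, 1256, 1668 and 2521 bases after it, and 1 further match lies before it. Of the coding forms of 611 to 1993 bases, and of HMGA2-210 with 8094 bases, 0 have a match after the stop codon, while HMGA2-209, a decay form of 485 bases, has 1. Of all annotated coding transcripts of 3000 to 6000 bases, 26.2% hold at least 1 match anywhere. A match is a description of the letters only, and let-7 itself was not measured here, since only poly(A) RNA was sequenced. Other kinds of let-7 site were not searched for, and whether the mix of HMGA2 transcripts differed between the groups was not tested. The sequences are shown because HMGA2-204 carries these 4 matches after its stop codon and the other annotated coding forms carry 0. First is let-7a-5p (RefSeq, GRCh38.p14, chr9:94175962-94175983, plus strand) with the seed in capitals, and then the 4 HMGA2 sites (GENCODE 29, GRCh38, chromosome 12, plus strand, seed matches beginning at 65963313, 65964548, 65964960 and 65965813) with the seed match in capitals, all 5′ to 3′.
let-7a-5p: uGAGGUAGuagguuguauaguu
site A: gccaacguucgauuuCUACCUC
site B: ccccacuacucaauaCUACCUC
site C: uugacuugcaaagacCUACCUC
site D: aaucaaaacacacuaCUACCUC
All 9 let-7 family members looked up in RefSeq (let-7a to let-7g, let-7i and miR-98) share this seed.

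Of 24 listed let-7 targets, 3 were in the table, and all 3 fell, as did 56.9% of the table. Their median log2 fold change was -0.89, against -0.97 over the table and -1.39 over its lower genes. Besides HMGA2 they were CCND1, cyclin D1, which fell from 195 ± 8.65 to 105 ± 9.33 FPKM (n = 3 libraries per group), and CDK6, the kinase it activates, which fell from 12.9 ± 1.13 to 6.98 ± 1.84 FPKM. Neither passed with TMM factors (adjusted p = 0.18 and 0.133, edgeR). These factors assume that most genes do not change, and they moved the median of the table from -0.97 to -0.37. Genes near the inner edge of the lower genes can lose the call by this shift alone, here and wherever TMM results are given below. LIN28B and the IGF2BP genes, further let-7 targets, were not in the table. Of 11 listed HMG chromatin proteins HMGA2 was the one in the table.

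Of 16 listed transcription factors of epithelial-mesenchymal transition 3 were in the table, SNAI2, TWIST2 and TCF4. All 3 passed as lower, as did 56.9% of the table, and with TMM factors TCF4 alone of them passed, against 35.3% of the table. TWIST2, a basic helix-loop-helix repressor, went from 23.0 ± 3.05 to 12.2 ± 2.39 FPKM (log2 fold change -0.93 with SE 0.20, edgeR adjusted p = 0.00197), close to the -0.96 of SNAI2. TCF4, an E protein that pairs with factors of the TWIST type, went from 10.7 ± 0.697 to 4.18 ± 0.426 FPKM (a log2 change of -1.40, SE 0.17). With TMM factors the adjusted p (edgeR) was 0.166 for TWIST2 and 0.00212 for TCF4. SNAI1, TWIST1, ZEB1 and ZEB2 had no value here. Of 20 SOX genes SOX9 and SOX15 were in the table, and SOX15 fell from 1.25 ± 0.349 to 0.618 ± 0.134 FPKM (a log2 change of -1.01 with SE 0.32, edgeR adjusted p = 0.0129; 0.271 with TMM).

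Listed regulators and early targets of TGF-β signalling, and AP-1 factors and TEAD cofactors, went in both directions. So did the table as a whole, of which 56.9% was called lower. Of 26 listed SMADs, SMAD regulators and early targets 4 were in the table, of which 3 fell and 1 rose. Nothing particular to TGF-β signalling is read from this count. SMURF2, a ubiquitin ligase of SMADs and TGF-β receptors, fell from 88.6 ± 6.80 to 33.9 ± 4.18 FPKM (n = 3 libraries per group). LTBP2, which binds fibrillin microfibrils, fell from 10.02 ± 0.188 to 4.28 ± 0.884 FPKM, and TGFBI, a matrix protein, changed by -0.90 on the log2 scale (SE 0.20). BAMBI, a decoy receptor that dampens TGF-β signalling, rose from 2.91 ± 0.240 to 6.87 ± 0.364 FPKM. Of 19 AP-1 factors and TEAD cofactors 2 were in the table. ATF3, a stress-induced AP-1 partner, rose from 4.52 ± 1.43 to 15.9 ± 4.92 FPKM, and VGLL3, a TEAD cofactor, fell from 13.3 ± 0.972 to 6.26 ± 1.69 FPKM.

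Of 31 epithelial junction and keratin genes 3 were in the table, and all 3 fell, in a table of which 56.9% was called lower. Their median log2 fold change was -1.13, against -0.97 over the table and -1.39 over its lower genes. DSP, desmoplakin, fell from 22.9 ± 2.78 to 5.40 ± 1.84 FPKM (n = 3 libraries per group), while KRT8 and KRT18, keratins of simple epithelium, had log2 fold changes of -0.93 and -1.13 (SE 0.16 and 0.17). The gene of E-cadherin, CDH1, had no value here. Of 25 mesenchymal products 7 were in the table, and all 7 fell, beside the 56.9% of the table called lower. Their median log2 fold change was -2.28, against -0.97 over the whole table and -1.39 over its lower genes. The 4 with the largest changes were COL3A1 (-3.04, SE 0.21) and COL1A2 (-2.55, SE 0.32), which encode fibrillar collagen chains, CDH11 (-2.40, SE 0.18), a cadherin of mesenchymal cells, and VCAN (-2.28, SE 0.31), the proteoglycan versican. COL1A2 was scarce, at 0.601 ± 0.0614 FPKM without ALB. Of 20 cartilage and matrix genes that SOX9 is known to raise, COL11A2 alone was in the table. It rose, as did 400 of the 937 genes of the table, from 0.638 ± 0.1004 to 1.74 ± 0.242 FPKM (a log2 change of 1.46 with SE 0.23, edgeR adjusted p = 0.00036). COL11A2, scarce as COL1A2 was, thus went the opposite way to SOX9. The activity of SOX9 was not tested, and the other genes of this list had no value here. With TMM factors the values of KRT8 and TGFBI stayed below 0 and did not pass (adjusted p = 0.0792 and 0.231, edgeR).

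**Figure D5:**
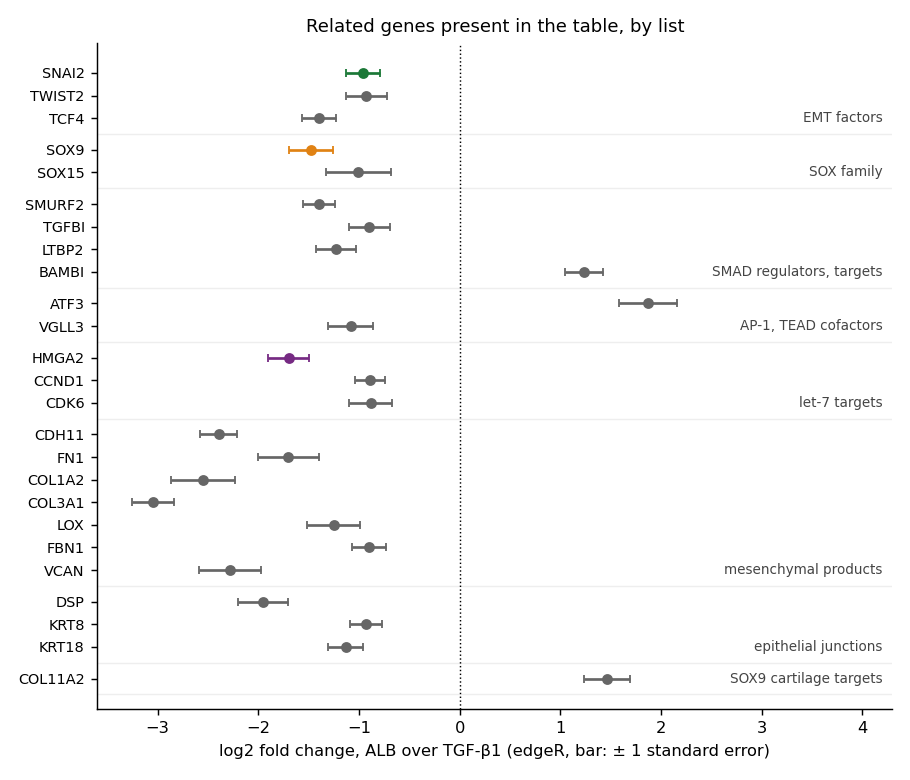
Log2 fold change (ALB over TGF-β1, edgeR) with its standard error for the genes of each list that are in the table; the 3 factors are coloured and other genes grey. Most points lie below 0, and BAMBI (1.24), ATF3 (1.87) and COL11A2 (1.46) lie above it.

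Some markers of other cell types that SOX9 and SNAI2 can accompany had values in the table. As the table holds only genes called as changed, any marker with a value in it had to differ between the groups. Of 7 markers of bile duct and other epithelium, KRT7, KRT8 and KRT18 were in the table, and their summed level was 284.5 to 291 FPKM in the TGF-β1 libraries and 120.1 to 158 FPKM in the ALB libraries. For the 4 stellate and mesenchymal markers the sum was 247 to 422 FPKM and 102 to 194 FPKM. Most of it was TAGLN, at 224 to 386 FPKM and 93.0 to 188 FPKM. Of 5 endothelial markers PECAM1 and TEK were in the table, with a sum of 1.64 to 2.12 and 0.821 to 1.03 FPKM, most of it TEK. Of 5 leukocyte markers ITGAM was, at 0.142 to 0.199 and 0.262 to 0.610 FPKM. Glial and melanocyte markers had 0 of 5 in the table. Whether a change in the make-up of the cells had a part in the lower levels of SNAI2, HMGA2 and SOX9 was not tested. With TMM factors TAGLN, KRT7, PECAM1 and TEK did not pass (adjusted p = 0.156, 0.219, 0.0691 and 0.158, edgeR).

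The profiles most like each of the 3 were compared over the 6 libraries by the root mean square difference of the centred log2 counts scaled to depth (CPM), with a prior count of 0.5. For HMGA2 the nearest were GJA1, which encodes the gap junction protein connexin 43 (difference 0.041), KCNMB1, a subunit of the large-conductance potassium channel of smooth muscle (0.046), and SAMD3 (0.075). GJA1 had a mean of 14.4 ± 3.00 FPKM in the TGF-β1 group, against 4.53 ± 0.770 after ALB (SD, n = 3). KCNMB1 was scarce, at 0.285 ± 0.0383 and 0.0784 ± 0.0106 FPKM. For SNAI2 they were KALRN, a guanine nucleotide exchange factor (0.070), PLS3, an actin-bundling plastin (0.076), and GRIN2D, a glutamate receptor subunit (0.078). PLS3 was abundant, at 97.3 ± 7.397 and 45.7 ± 5.81 FPKM. For SOX9 they were MLPH, melanophilin, which links melanosomes to myosin (0.11), RAB42 (0.13) and SYNE1, a nuclear envelope protein (0.14). Likeness by counts did not always hold by FPKM. Mean FPKM went from 2.235 to 1.499 for KALRN and from 5.28 to 1.03 for SYNE1, with log2 fold changes by counts of -0.94 and -1.36. The median difference to all genes of the table was 0.91 for SNAI2, 0.71 for HMGA2 and 0.77 for SOX9. Between the 3 factors themselves it was 0.20 for HMGA2 and SOX9, 0.35 for SNAI2 and SOX9 and 0.41 for SNAI2 and HMGA2. The measure follows the change between the groups, which was the ground on which the table's genes had been selected, so likeness here is a description.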

How the data were processed

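RNA of 3 TGF-β1 and 3 ALB libraries was poly(A)-selected and sequenced by the authors on an Illumina NovaSeq X Plus. The authors deposited whole-number counts and FPKM values per gene, limited to genes with over 2-fold change in DESeq2 at P below 0.01. The submitters' notes name CASAVA 1.4 and mouse builds, although the gene names are human. Aligner, counter, annotation and human build: not given in the sources used here. Columns were matched to samples by group initial and number, and in the TGF-β1 group by number alone.

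Relative depth was taken from count divided by FPKM, as the median of the 565 genes that had 50 or more counts throughout. Genes with a single GENCODE 29 transcript, 41 in all, set its scale. The depths were 33800000 to 38200000 fragments per library in the TGF-β1 group and 35800000 to 41600000 in the ALB group. Sums of the table's counts are not depths. At these depths, edgeR 4.0.16 (R 4.3.3) tested the counts of 937 genes, with Benjamini-Hochberg adjustment. The standard error is the absolute fold change over the square root of F. DESeq2 1.42.0 and limma 3.58.1 were alternatives, and scipy 1.17.1 gave exact permutation tests. The scripts were tested on simulated data. The genes and the lists were chosen with earlier results of these data known. Named genes are the 3 factors, the 3 closest profiles of each, and from each list all members in the table, or the 4 with the largest fold change where there are more than 6. Listed genes named as outside the table (LIN28B, the IGF2BP genes, SNAI1, TWIST1, ZEB1, ZEB2 and CDH1), the overlapping genes and SSTR2 were named outside this rule, after the table was seen. The alternatives were other scalings, tools, pseudocounts, an FPKM minimum, the replicate block and each library left out.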

Additional observations from a re-analysis of the deposited data

How the results depend on the processing

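A fold change counted as the same if it kept its direction and its side of the threshold, and the number of genes called if it stayed within 1.5 times. Ratio changes and the implied length counted as the same within 1 SD of the reported value (the larger group SD), whatever their p. By these rules 85 of 88 alternative values for 8 results were the same. The others were SNAI2 with TMM factors from the table (log2 fold change -0.36, adjusted p = 0.0524, edgeR) and in DESeq2 under size factors of its own (-0.26, DESeq2 adjusted p = 0.155), and the number of genes called, which was 931 and became 614 when a mean of at least 1 FPKM was required, since only 618 genes entered that fit. TMM and DESeq2 factors move the median of the table from -0.97 to -0.37 and -0.27, and SNAI2 lay 0.01, 0.00 and 0.01 above that median. With each library left out, log2 fold changes ranged from -1.04 to -0.87 for SNAI2, -1.79 to -1.52 for HMGA2 and -1.69 to -1.30 for SOX9, and 903 to 915 genes were called. The log2 ratio changes ranged from 0.60 to 0.85 (SNAI2 to HMGA2), 0.33 to 0.66 (SNAI2 to SOX9) and -0.28 to -0.05 (HMGA2 to SOX9), and the implied length of HMGA2 from 0.09 to 0.12. Correlations of deviations between same-numbered libraries were 0.11, -0.03 and -0.11, and not every library correlated best with its own number. No pairing by replicate number was evident, but so few libraries cannot exclude it. With the replicate block 925 genes were called, and the 3 factors had log2 fold changes of -0.97, -1.69 and -1.51. The centred gap and the alternatives for the implied length were chosen after seeing the data.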
